A study of Homo sapiens with 6 samples.

Results

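D cyclins, their kinases, the CIP/KIP inhibitors and the retinoblastoma gene are described here in MCF10A cells, an established line of immortalized human mammary epithelial cells, grown with or without growth factors. The 9 genes are CCND1, CCND2, CCND3, CDK4, CDK6, CDKN1A, CDKN1B, CDKN1C and RB1, taken by name from a table of 19198 genes. The table lists 8 of them, all 8 were among the 16988 genes whose mean reached 10 normalized counts and which were tested, and CCND2 is not analysed here. Both conditions shared DMEM:F12 medium with 5% horse serum. The 3 control samples also received hydrocortisone at 0.5 µg/ml, EGF at 20 ng/ml, insulin at 10 µg/ml and cholera toxin at 100 ng/ml. The 3 depleted samples received none of these. The labels give the number of each replicate but not whether replicates came from separate cultures, so the p-values measure the spread between these samples, which may be technical. The cells are 1 line, and depletion lasted until a change in cell shape was seen, with the day of RNA collection for these samples not given in the sources used here.

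Entry into the cell cycle is controlled in G1. D cyclins are made in response to growth factors and activate CDK4 and CDK6, which phosphorylate the retinoblastoma protein and so release E2F transcription factors that turn on the genes of S phase. The CIP/KIP proteins, encoded by CDKN1A, CDKN1B and CDKN1C, inhibit cyclin E and cyclin A complexes of CDK2 and also bind the complexes of D cyclins. CCND1 is a common amplified oncogene of breast cancer, and CDK4 and CDK6 are drug targets in that disease.

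Reads on genes ran from 7472418 to 28672630 per sample, so that each of the 8 genes had between 64 and 13577 reads in a sample. The mammary epithelial markers were detected in every sample, but depleted replicate 1 had 610 normalized counts of CDH1 and 562 of KRT5, while no other sample had fewer than 12961 and 10908. EPCAM (153) and TP63 (8.2) were also lowest in that sample. Set against the controls, the other epithelial markers were not low there. KRT14 (980), KRT17 (19236) and KRT18 (8659.5) were above every control, and KRT8 (7755) lay among the controls. Among the depleted samples, however, replicate 1 was the lowest for KRT17 and KRT8, the highest for KRT14 and in the middle for KRT18. Of the 8 epithelial markers TP63 fell and the other 7 did not pass the test, with a summed level of 38523 to 85406 normalized counts in the controls and 37963 to 183170.5 after depletion. All 8 fibroblast markers had higher values in each depleted sample than in each control sample (summed level 813 to 1721 with and 15869 to 35315 without growth factors), and 6 of them rose by the test used below. The highest of these sums was in depleted replicate 1, where all fibroblast markers but COL1A1 and FAP had their highest value. Of 8 blood and endothelial markers 4 are listed. PTPRC had at most 13.8 normalized counts in any sample, CDH5 rose and PECAM1 varied from 91.5 to 1582 with no order by condition. The part of these marker changes in the results below was not tested, and in bulk RNA a change in the number of cells of a type and a change in RNA per cell cannot be told apart.

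CCND1, the gene of cyclin D1, rose without growth factors and was the only one of the 8 genes that passed the test. Control replicates 1 to 3 held 1355, 4257 and 735 normalized counts of CCND1, and depleted replicates 1 to 3 held 11808, 8902 and 10258.5. The groups did not overlap. The controls differed among themselves by 5.79 times and the depleted samples by 1.33 times. By limma over all genes tested the log2 difference was 2.66 (standard error 0.58, adjusted p = 0.0313), a 6.33-fold rise with a 95% interval from 2.54 to 15.8. This 1 called gene of 8 stands beside 6.33% of all genes tested that were called in either direction, 4.36% higher and 1.97% lower. The rise ranked 712 by size among the 16988 genes, and the median position of CCND1 among the listed genes of a sample went from percentile 83.2 to percentile 99.1. Depleted replicate 1, with low CDH1 and KRT5 but the highest KRT14, had the highest CCND1 value. Without that sample the log2 difference was 2.56 and the call was lost (limma adjusted p = 0.0786). The call was lost in 4 of the 6 fits that left out 1 sample, namely control replicate 1 or any of the depleted replicates. The call was lost with edgeR (adjusted p = 0.064), which called 5.72% of all genes, and with limma without a trend (adjusted p = 0.0621), which called 5.4%. It was made with DESeq2 (adjusted p = 0.00144), which called 12.5%. It was also made with pseudocounts of 0.5 and 10 (6.16% and 6.13% of all genes called), without a filter on low values (6.87%), with a mean of at least 50 (6.26%), with equal totals (6.33%) and with TMM factors (6.42%). The same held with the replicate number as a block (5.69%) and with the length and GC correction, alone (7.56%) or with the block (4.3%).

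CCND3, the gene of cyclin D3, had the lowest log2 difference of the 8 genes without passing the test. Control replicates 1 to 3 held 1740, 1833 and 439.7 normalized counts of it, and depleted replicates 1 to 3 held 548, 476 and 778. Control replicates 1 and 2 lay far above all depleted samples, whereas control replicate 3 lay below all of them. The log2 difference was -0.93 (standard error 0.54, limma adjusted p = 0.402), and its 95% interval ran from -2.17 to 0.31. Without control replicate 3 the log2 difference was -1.60 and CCND3 was called (limma adjusted p = 0.0137). That fit called 14.9% of all genes, against 6.33% with all 6 samples. Whether CCND3 was called thus depended on 1 library.

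**Figure D1:**
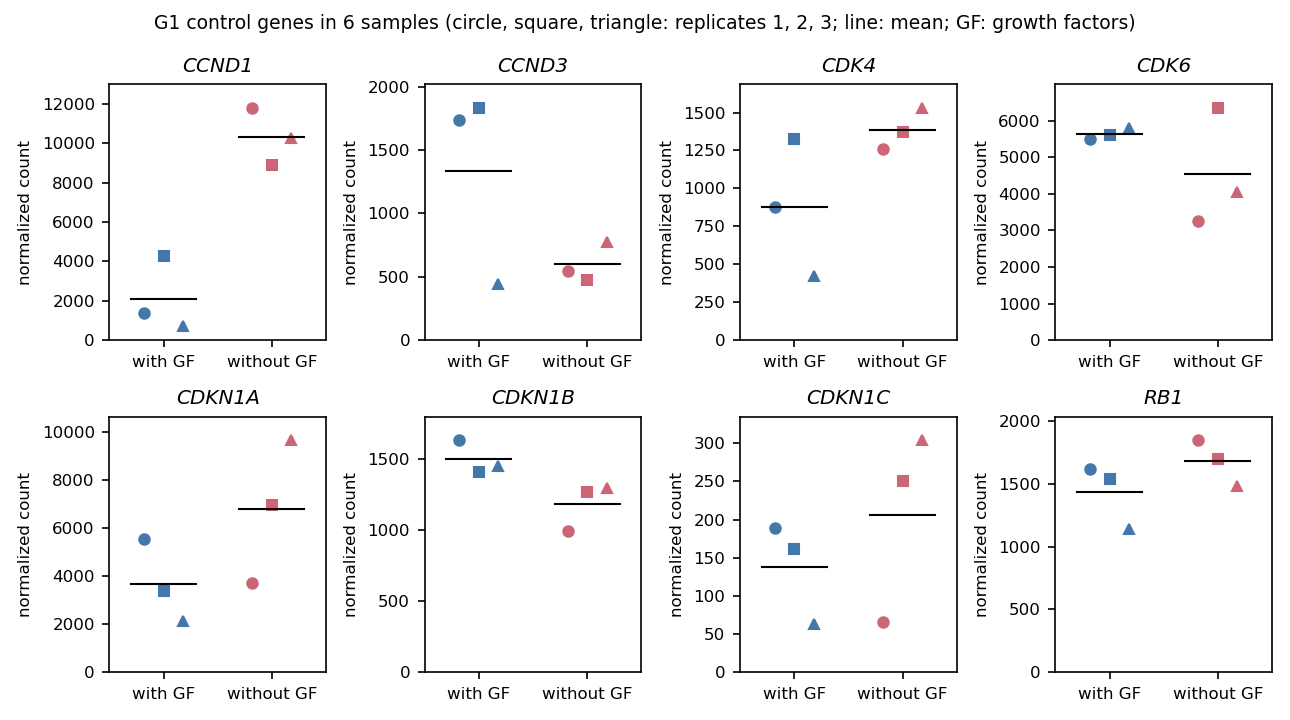
Normalized counts of the 8 listed genes (vertical axes, each from 0) in the 3 samples with and the 3 samples without growth factors; symbols are replicates and lines are means. CCND1 and CDKN1B are the genes whose groups do not overlap, and control replicate 3 is the lowest control for 6 of the 8 genes.

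The kinases that pair with D cyclins did not pass the test. The controls held 877, 1326 and 420.1 normalized counts of CDK4, against 1258, 1369 and 1532 after depletion. Control replicate 2 overlapped the depleted range, which was narrow at 1.22 times from lowest to highest. The log2 difference was 0.81 (standard error 0.41, 95% interval -0.14 to 1.76, limma adjusted p = 0.331). CDK6 was almost even among the controls, at 5488, 5595 and 5789 normalized counts, and spread over 3249, 6351 and 4036 in the depleted samples. Depleted replicate 2 was above every control, and depleted replicates 1 and 3 were below. The log2 difference of CDK6 was -0.36 (standard error 0.33, 95% interval -1.11 to 0.39, limma adjusted p = 0.613).

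Among the CIP/KIP inhibitors, CDKN1A had the largest mean difference, and it too did not pass. CDKN1A, a target of p53, was at 5520.5, 3383 and 2118 normalized counts in the controls, against 3723, 6939 and 9648 after depletion. The highest control exceeded the lowest depleted sample. Its log2 difference was 0.89 (standard error 0.47, 95% interval -0.19 to 1.96, limma adjusted p = 0.349). CDKN1B, whose protein is known to hold cells in quiescence, was at 1632, 1404 and 1452 normalized counts in the controls, against 992, 1263.5 and 1297 after depletion. All depleted values were below all control values. Groups that do not overlap were thus found for 2 of the 8 genes, CCND1 and CDKN1B, beside 25.6% of the genes tested (13.5% higher and 12.1% lower), and an unadjusted p under 0.05 for 1 of the 8, CCND1, beside 20%. The log2 difference of CDKN1B was -0.34 (standard error 0.26, limma adjusted p = 0.527), with a 95% interval from -0.93 to 0.24 that spans a fall to 0.525 times and a rise to 1.18 times the control level. CDKN1C, an imprinted gene, was the least abundant, with 189, 161 and 63 normalized counts in the controls and 65.9, 249.8 and 304.1 in the depleted samples. Depleted replicate 1 lay near the lowest control, while depleted replicates 2 and 3 lay above all controls. The log2 difference was 0.46 (standard error 0.67, 95% interval -1.06 to 1.98, limma adjusted p = 0.769), the widest interval of the 8 genes.

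RB1, which encodes the substrate that CDK4 and CDK6 phosphorylate, was at 1613, 1538 and 1139 normalized counts in the controls, against 1847, 1699 and 1485 after depletion. The ranges overlapped. The log2 difference of 0.24 (standard error 0.27, limma adjusted p = 0.696) had a 95% interval from -0.37 to 0.85, which leaves out a change of 2-fold in either direction. In this fit, which has no replicate block, the 95% intervals of CDKN1B, CDK6 and RB1 all included 0, and of these only that of CDK6 reached a 2-fold change. With the replicate number as a block the standard errors were larger, at 0.39 for CDKN1B and 0.38 for RB1. The exclusion of a 2-fold change is given for the fit without the block only.

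**Figure D2:**
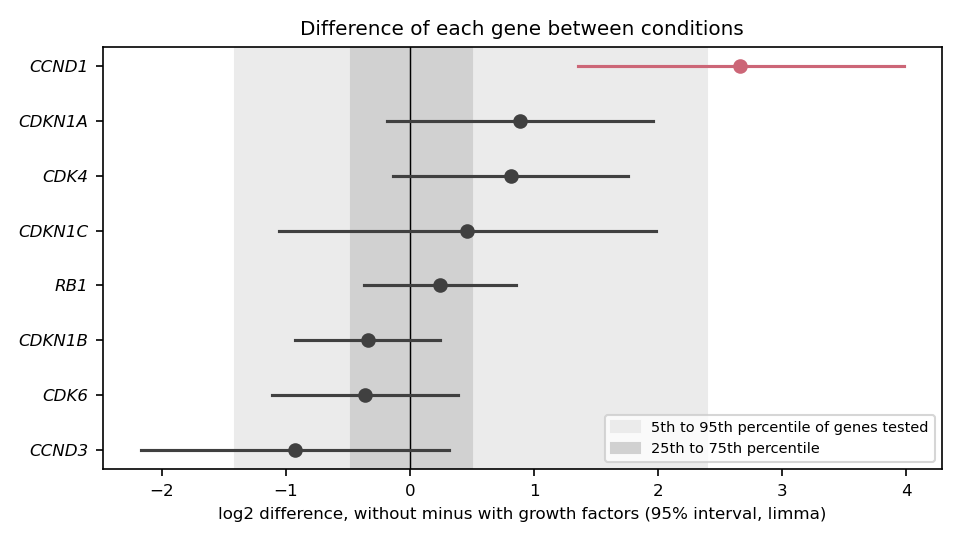
Log2 difference without minus with growth factors (horizontal axis) of each gene by limma, with its 95% interval; shaded bands hold the central part of the differences of all genes tested. CCND1 at 2.66 lies above the 95th percentile of 2.39, and the intervals of the other 7 genes include 0.

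Of the 8 genes, 5 had a positive and 3 a negative log2 difference, with a median of 0.35 beside -0.03 over all genes tested. Control replicate 3 was the lowest of the controls for 6 of the 8, against 42.3% of the genes tested. It was also the lowest control for 14 of 15 proliferation markers, whose summed level was 36234, 49062 and 17003 normalized counts in the controls and 32899, 22618 and 18997 in the depleted samples. The deviation of this library from the mean level of each gene had a Spearman correlation of 0.366 with transcript length, taken across 13035 genes that are not independent replicates. Control replicate 2 deviated about as far in the other direction, at -0.358, and the other 4 samples lay between -0.168 and 0.222. With GC content the correlations ran from -0.315 in control replicate 1 to 0.219 in depleted replicate 1. Corrected for length and GC content, the log2 difference was 2.54 for CCND1 (limma adjusted p = 0.0363) and -1.03 for CCND3 (limma adjusted p = 0.242).

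With 1 sample left out of each fit, the log2 difference of CCND1 lay between 2.09 and 3.36. Its limma adjusted p lay between 0.00538 without control replicate 2 and 0.114 without control replicate 1. It was 0.0307 without control replicate 3, and 0.0786, 0.0932 and 0.103 without depleted replicates 1, 2 and 3. CCND1 was thus called in 2 of the 6 fits, those without control replicate 2 or 3. The share of all genes called was 3.76%, 3.97% and 14.9% without control replicates 1, 2 and 3, and 5.28%, 2.63% and 2.71% without depleted replicates 1, 2 and 3. The direction of CCND3, CDK4, CDK6, CDKN1A, CDKN1B and RB1 was the same in all 6 fits. CDKN1C turned to -0.03 without control replicate 3 and was 1.14 without depleted replicate 1, neither past the threshold.

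**Figure D3:**
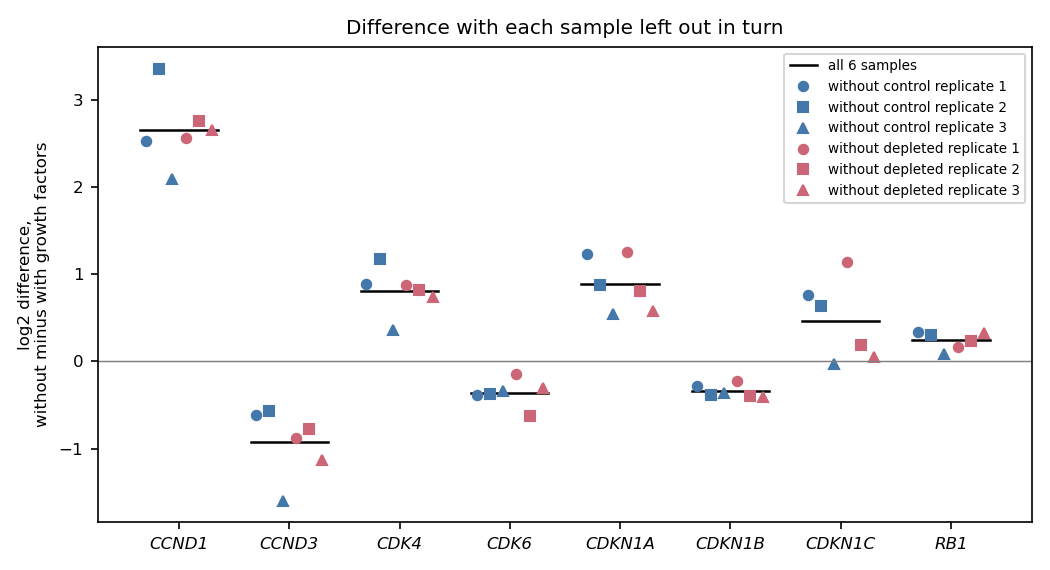
Log2 difference without minus with growth factors (vertical axis) for each gene with all 6 samples (line) and with 1 sample left out (symbols, blue for controls and red for depleted samples). CCND1 ranges from 2.09 to 3.36, and CCND3 reaches -1.60 without control replicate 3.

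Levels of different genes were compared per length, as normalized counts per kb of exon. In the controls CDKN1A was the highest at 1226 ± 574 (mean ± SD, n = 3) and was above CDK6 in every sample. CDK6 (460 ± 12.5) and CCND1 (444 ± 395) had overlapping ranges, as did CCND1 and CDK4 (283 ± 146), CDK4 and CCND3 (232 ± 135), and CCND3 and RB1 (222 ± 39.6). CDKN1B (162 ± 13) and CDKN1C (55.6 ± 26.7) followed, each with a range below that of the gene before it. Without growth factors CCND1 came second at 2168 ± 305, with a range that overlapped that of CDKN1A (2260 ± 990) and lay wholly above that of CDK4 (448 ± 44.5). CDK4, CDK6 (371 ± 132) and RB1 (261 ± 28.3) overlapped in turn. CDKN1B (128 ± 18.1) had a range below that of RB1, and its range overlapped that of CCND3 (104 ± 27.4), as did that of CDKN1C (83.3 ± 50.3). The per-kb share of CCND1 in the sum of CCND1 and CCND3 was 48.5%, 73.8% and 66.9% in the controls and 96.3%, 95.8% and 94.1% in the depleted samples.

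This order depended on the length used, an alternative tried after the data had been seen. Per kb of the longest transcript, the level of CCND3 was 2.41 times and that of CDKN1B 2.13 times the level per kb of all exons. CCND3 then had rank 2 in the controls, at 559 ± 325 (mean ± SD, n = 3), in place of rank 5, and CDKN1B at 345 ± 27.7 came before RB1 at 299.9 ± 53.4, with overlapping ranges. In the depleted samples the order of the 8 genes was the same with either length. The share of CCND1 in the sum of CCND1 and CCND3 became 30.6%, 56.7% and 48.6% in the controls and 92.4%, 91.4% and 88.2% in the depleted samples. The length used scales the ratio of CCND3 to CCND1 alike in every sample, so it cannot change whether the groups overlap.

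Ratios within a sample set the genes against each other. The per-kb ratio of CCND3 to CCND1 was 1.06, 0.356 and 0.495 with growth factors and 0.0384, 0.0442 and 0.0627 without. Per kb of the longest transcript it was 2.27, 0.762 and 1.06 with growth factors and 0.0822, 0.0947 and 0.134 without. The length used scales every sample alike, so it cannot change the order of the samples or the log2 difference. The ratio was lower in each depleted sample than in each control, with a log2 difference of -3.59, or 12.1 times (exact two-sided permutation test, p = 0.1, adjusted p = 0.3 over the 3 ratios). With 3 samples against 3 this test cannot go below 0.1. The ratio of CDK6 to CDK4 was 1.58, 1.07 and 3.48 in the controls and 0.653, 1.17 and 0.666 in the depleted samples. These ranges overlapped through control replicate 2 and depleted replicate 2 (log2 difference -1.18, exact permutation p = 0.2, adjusted p = 0.3). The summed CIP/KIP level was 3.57, 1.11 and 3.85 times the sum of CCND1 and CCND3 in the controls and 0.535, 1.31 and 1.52 times in the depleted samples. Control replicate 2, with the most CCND1 of the controls, lay among the depleted samples (log2 difference -1.28, exact permutation p = 0.3, adjusted p = 0.3). CDKN1A made up 79.5% to 92.5% of the CIP/KIP sum per kb, so this ratio mostly sets CDKN1A against the D cyclins. Per kb of the longest transcript the log2 difference of this ratio was -0.91.

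**Figure D4:**
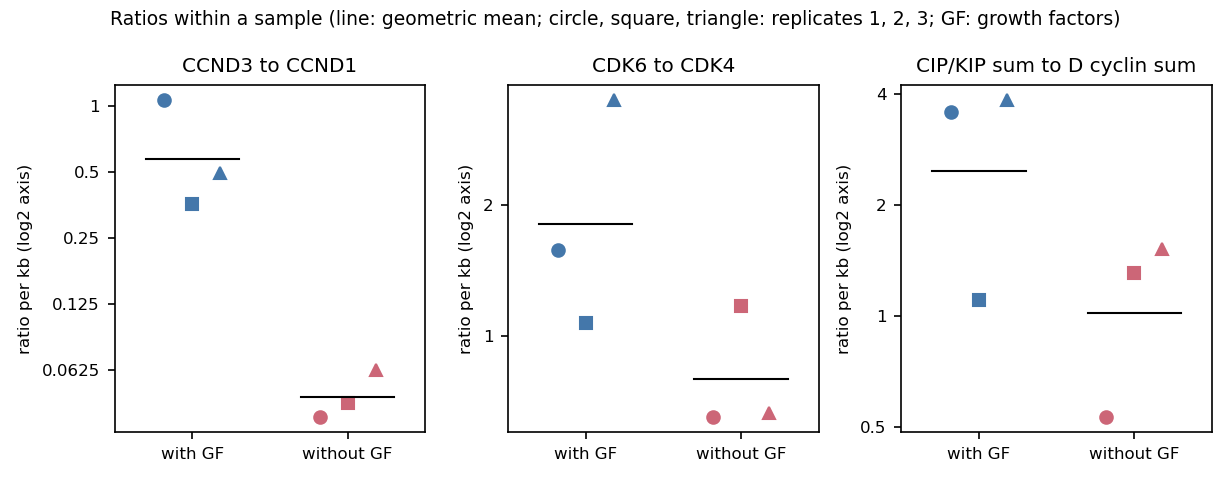
Per-kb ratios within each sample (vertical axes, log2 scale) with and without growth factors; symbols are replicates and lines are geometric means. The ratio of CCND3 to CCND1 is at least 0.356 in each control and at most 0.0627 in each depleted sample, while the ranges of the other ratios overlap.

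The rest of the pathway was described by 8 lists with 95 genes tested. FOXO1 fell and none of the other 94 passed, so that 1.05% were called by limma beside 6.33% of all genes tested. An unadjusted p under 0.05 was found for 15.8% of them, beside 20% of all genes tested. The counts by list below stand beside these shares and beside 5.72% of all genes called by edgeR and 12.5% by DESeq2. Of the INK4 inhibitors, which bind CDK4 and CDK6 directly, CDKN2C and CDKN2D are listed, with log2 differences of 0.16 (limma adjusted p = 0.861) and 0.66 (limma adjusted p = 0.617). CDKN2A and CDKN2B are not analysed here. None of the 8 genes of cyclin E, cyclin A and CDK2 was called by limma (1 at an unadjusted p under 0.05, 0 by edgeR and 1 by DESeq2), with a median log2 difference of -0.28. The lowest was CCNA1, at -1.94 (limma adjusted p = 0.179), with 395, 664 and 90.5 normalized counts in the controls and 131, 62.9 and 49.2 without growth factors. CCNA2, the cyclin A of proliferating cells, was next at -0.87 (limma adjusted p = 0.472). All 8 genes of that list had their lowest control value in control replicate 3. Without that sample CCNA1, CCNA2 and CKS2 of the list were called, in a fit that called 14.9% of all genes.

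The 12 pocket protein, E2F and DP genes gave no call by limma, edgeR or DESeq2 and none at an unadjusted p under 0.05, with 6 positive and 6 negative log2 differences. TFDP2, a partner of E2F proteins, was at 0.63 (limma adjusted p = 0.355) and E2F2 at -1.12 (limma adjusted p = 0.406). E2F2 was called in the fit without control replicate 3. The 5 genes of MuvB, the core of a complex that represses cell cycle genes in quiescence, gave no call by limma, edgeR or DESeq2 and none at an unadjusted p under 0.05. In this list LIN52 was at 0.82 (limma adjusted p = 0.283) and LIN37 at -0.77 (limma adjusted p = 0.405). Of 16 genes for the turnover of D cyclins and CIP/KIP proteins none was called by limma, edgeR or DESeq2 and 3 had an unadjusted p under 0.05. The scaffold CUL1 was at -0.70 (limma adjusted p = 0.17), with every depleted sample below every control. The ubiquitin ligase RNF123 was at -0.73 (limma adjusted p = 0.212). Among 10 other cyclins and CDKs tested there was no call by limma or edgeR, 1 by DESeq2 and 2 at an unadjusted p under 0.05. CCNG1, a p53 target, was at -1.12 (limma adjusted p = 0.16) and CCNC at -0.79 (limma adjusted p = 0.249).

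Among 22 p53 targets other than CDKN1A, limma called none, edgeR called 1 and DESeq2 called 2, and 4 had an unadjusted p under 0.05. Their median log2 difference was 0.01. GADD45A, a stress-induced growth arrest gene, had 224, 300.5 and 123 normalized counts in the controls and 407, 1040.5 and 1201 in the depleted samples, at a log2 difference of 1.97 (limma adjusted p = 0.0555). FDXR was at -1.09 (limma adjusted p = 0.0728). FOXO1, which encodes a transcription factor that growth factor signalling excludes from the nucleus, fell from 1574, 1144 and 1451 to 333, 494 and 387 normalized counts. Its log2 difference was -1.78 (standard error 0.29, limma adjusted p = 0.00866), and the call was lost without depleted replicate 3 (-1.76, limma adjusted p = 0.0514). It was the called gene among 20 regulators of transcription, of which edgeR called 1 and DESeq2 called 3, and 5 had an unadjusted p under 0.05. That list had a median log2 difference of 0. MYC, a transcription factor of growth, had the lowest log2 difference of the list, -2.01 (limma adjusted p = 0.053), with 1556.5, 4964 and 1473 normalized counts in the controls against 833, 492 and 425 after depletion. These groups did not overlap, and MYC was called by DESeq2 (adjusted p = 0.00135), with the replicate block (limma adjusted p = 0.0357), without a filter (limma adjusted p = 0.0475), with the length and GC correction (limma adjusted p = 0.0406) and without control replicate 3 (limma adjusted p = 0.0302, with 14.9% of all genes called). MYC was not called in the other settings, such as edgeR (adjusted p = 0.0546) and limma without a trend (adjusted p = 0.0983). Nor was it called with any other sample left out (limma adjusted p from 0.057 to 0.19). CTNNB1, which encodes beta-catenin, was at 1.09 (limma adjusted p = 0.116) and was called by DESeq2 (adjusted p = 0.0119). Of the 15 proliferation markers none was called by limma, edgeR or DESeq2 and none had an unadjusted p under 0.05. Their log2 differences ran from -1.03 for CCNB1 to 0.90 for TYMS, with a median of -0.11.

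**Figure D5:**
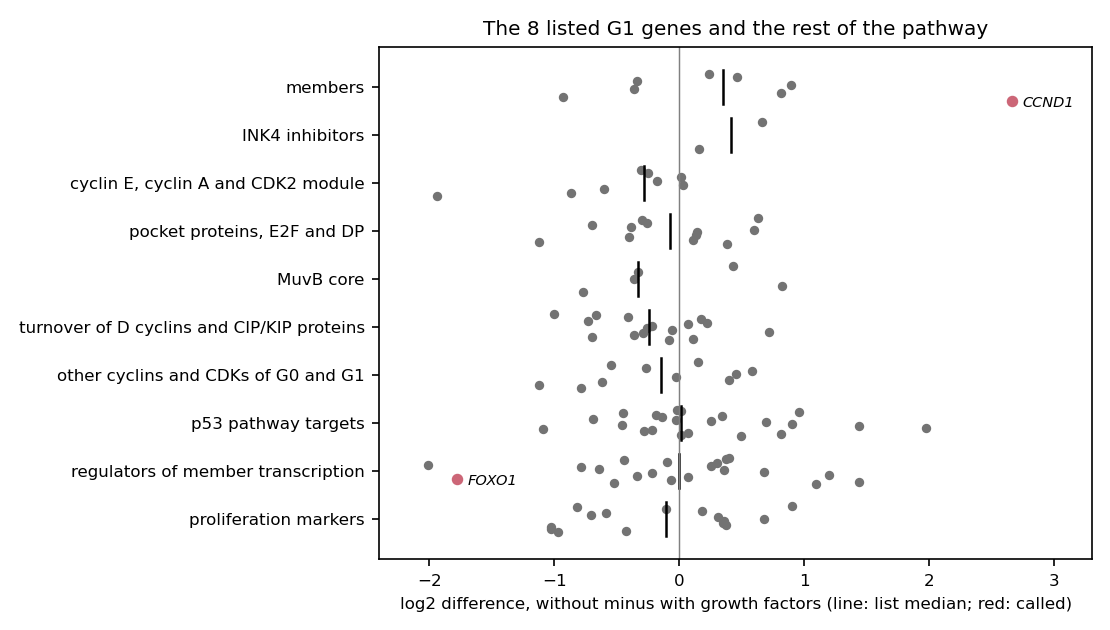
Log2 difference without minus with growth factors (horizontal axis) of each gene tested among the D cyclins, CDK4 and CDK6, CIP/KIP inhibitors and RB1 ("members"), the other lists of the pathway and the proliferation markers; lines are list medians and red points are called genes. CCND1 at 2.66 and FOXO1 at -1.78 are the called genes shown.

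Of 10582 other protein-coding genes whose mean reached 100 normalized counts, HABP4, CALB2 and MGLL had the pattern most like that of CCND1 over the 6 samples. Their Pearson correlations with it on the log2 scale ran from 0.991 to 0.996, given as a description because the points share libraries and scaling. MGLL, which encodes monoglyceride lipase, had 241, 1047 and 175 normalized counts in the controls and 4953.5, 2455.5 and 3450.1 in the depleted samples. CALB2, which encodes the calcium-binding protein calretinin, had 15, 73.8 and 3.9 in the controls and 453, 233 and 467 in the depleted samples. In these genes control replicate 2 was the highest control and control replicate 3 the lowest, as in CCND1.

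The genes lie on hg38, with coordinates from Gencode v44. CCND1 spans chr11:69641156-69654474 and overlaps LTO1 on the other strand. LTO1 had 233 to 391.5 normalized counts with and 277 to 317 without growth factors, a log2 difference of -0.06 (limma adjusted p = 0.956). CCND3 lies at chr6:41934934-42050357. CDK4, at chr12:57747727-57756013, overlaps TSPAN31 and MARCHF9 on the other strand, which had log2 differences of -0.02 (limma adjusted p = 0.986) and 0.57 (limma adjusted p = 0.402). CDK6 spans chr7:92604921-92836573, CDKN1A chr6:36676460-36687337 and CDKN1C chr11:2883213-2885775. CDKN1B, at chr12:12685498-12722369, overlaps GPR19 on the other strand, a gene with at most 31 normalized counts in a sample. RB1, at chr13:48303744-48599436, overlaps LPAR6, RCBTB2 and the pseudogene PCNPP5 on the other strand, which had log2 differences of 0.26 (limma adjusted p = 0.798), 0.77 (limma adjusted p = 0.41) and -0.22 (limma adjusted p = 0.806). The libraries kept strand, but whether the counting used it is not given in the sources used here.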

How the data were processed

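RNA-Seq of 6 MCF10A samples was used, with conditions and replicate numbers from the sample labels. The design text gives 2 replicates per condition, but the labels list 3. Per the labels and methods, the authors removed ribosomal RNA and made strand-specific libraries, read from a single end over 100 bases. TopHat2 aligned the reads to hg38, HTSeq 0.6 assigned them to Gencode v22 genes, and DESeq2 1.8.1 normalized them. The deposited values are a signal per gene, reads divided by the size factor of the sample and not by gene length. Every value (100%) was within 0.01 of a whole multiple of the smallest value in its column, so whole reads could be recovered. On these reads edgeR called 971 genes and DESeq2 2112. Intervals cover the spread between samples, and reads carry no molecular identifiers.

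The test was that of limma 3.58.1 (R 4.3.3, two-sided, with a trend in eBayes) on log2(normalized count + 1), so that the differences of low genes are understated, for 16988 genes with a mean of at least 10. Calls needed a change of at least 2-fold and an adjusted p (Benjamini-Hochberg, over all genes tested) under 0.05. Names, exon lengths and coordinates came from Gencode v44, with 18913 of the 19198 identifiers matched. Ratios used normalized counts per kb of merged exons, with per kb of the longest transcript, no division by length, and a pseudocount of 1 per kb as alternatives. Of 4 planned ratios 3 were computed, since CCND2 is not analysed here. Named genes are the 8 listed genes, in each list the called genes or the 2 with the smallest adjusted p, the 3 genes most correlated with a called gene, and genes on the other strand. MYC, CTNNB1, TYMS, CKS2, CDH1, EPCAM, KRT5, KRT8, KRT14, KRT17, KRT18, PTPRC and PECAM1 were named after their values were seen. The genes and lists were chosen with earlier results of these data known. Alternatives were edgeR 4.0.16, DESeq2 1.42.0, limma without a trend, a replicate block, equal totals, TMM factors, pseudocounts of 0.5 and 10, no filter, a mean of at least 50, a length and GC correction with and without the block, and each sample left out. Replicates of a condition differed by more than sampling noise (chi-square per degree of freedom 26.4 to 312.5). The procedure was tested on simulated data. These were drawn independently for each gene and held no length or GC trend of a library, so they do not give the error rate for the present samples.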

Additional observations from a re-analysis of the deposited data

How the results depend on the processing

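The call of CCND1 held under 10 of 12 alternative settings, but it was lost in 4 of the 6 fits that left out 1 sample. Several of the 10, such as other pseudocounts, filters and scalings, repeat the limma fit on nearly the same values and were unlikely to differ. With limma without a trend (log2 difference 2.66, adjusted p = 0.0621) and with edgeR (2.34, adjusted p = 0.064) 0 of the 8 genes were called, although 1 had an unadjusted p under 0.05 in each; the range of the adjusted p over the 12 settings was 0.00144 to 0.064. Leaving out each sample in turn gave 0 to 2 called genes of the 8, with CCND1 between 2.09 and 3.36, CCND3 between -1.60 and -0.57 (called without control replicate 3) and CDKN1C between -0.03 and 1.14. The other genes and the 3 ratios kept their direction under all alternatives run. For the ratios of CCND3 to CCND1 and of CDK6 to CDK4 the choice of length cannot change the difference. In the 8 pathway lists 1 of 95 genes tested was called, beside 6.33% of all genes. The counts in other settings follow, with the share of all genes called in brackets. The count was 4 without a filter (6.87%), 2 with equal totals (6.33%), 2 with TMM factors (6.42%) and 3 with the replicate block (5.69%). It was 2 with edgeR (5.72%), 7 with DESeq2 (12.5%), 4 with the length and GC correction (7.56%) and 2 with that correction and the block (4.3%). With a sample left out it ran from 0 to 9. It was 9 without control replicate 3 (14.9%) and 0 without depleted replicate 3 (2.71%), where FOXO1 was not called. Over all genes the count of 1076 became 2112 with DESeq2 and lay between 445 (without depleted replicate 2) and 2483 (without control replicate 3) with a sample left out. The cause of these changes was not tested. Deviations of same-numbered samples correlated at -0.073, -0.283 and -0.323, and those of differently numbered samples at -0.068 to 0.291. These deviations also hold the length and GC trends of each library. The correlations therefore cannot decide whether the numbers pair the samples, which the labels do not say. The replicate block gave CCND1 a limma adjusted p of 0.0154, with 1 of the 8 genes called. The exact permutation tests of the ratios cannot go below p = 0.1 with 3 samples against 3. CDKN1C had the fewest reads of the 8 genes, at 64 or more in a sample. Its SD on the log2 scale was 0.85 in the controls and 1.19 in the depleted samples, and the part of depth in this spread was not tested.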
